A study of Mus musculus with 3 samples.

Results

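The genes described here are 10 members of 4 imprinted domains of the mouse, of 55536 annotated genes in the deposited gene tables: 6 long noncoding RNA (lncRNA) genes, Airn, Kcnq1ot1, H19, Meg3, Rian and Mirg, and 4 protein-coding genes that lie beside them, Igf2r, Kcnq1, Cdkn1c and Igf2. They were chosen by name and matched by gene identifier in the tables of every library. RNA of the chromatin fraction was sequenced after ribosomal RNA depletion from macrophages, grown as primary cells from the bone marrow of C57BL/6J mice, which had received Lipid A, the Toll-like receptor 4 ligand of bacterial lipopolysaccharide, at 100 ng/ml for 40 min. This treatment is shared by all 3 libraries, which are biological replicates of 1 group, and untreated cells were not analysed here. Genes were therefore compared with other genes of the same library. The labels give no age or sex of the animals.

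Imprinted genes are transcribed mainly from the copy inherited from 1 parent. At several of these domains a long noncoding RNA is made from the paternal chromosome, stays near its site of transcription and is needed for silencing coding genes in cis. Airn, which starts inside an intron of Igf2r and runs against it, does this for Igf2r, and Kcnq1ot1, which starts inside an intron of Kcnq1, does it for Kcnq1, Cdkn1c and other genes of that domain. At H19 and Igf2 the shared control is an insulator bound by CTCF, and Meg3, Rian and Mirg are made from the maternal copy of the Dlk1-Dio3 domain, where Rian carries small nucleolar RNAs and Mirg carries microRNAs. The libraries come from an inbred strain and the tables give no parental copy, so a level is the sum of both chromosomes.

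The promoters of the highest lncRNA genes and of the coding gene that overlaps Airn are shown because imprinting at these loci is written in methylation of CG dinucleotides. Each sequence holds 250 bases before and 50 bases after the start in RefSeq (build GRCm38.p6), read 5′ to 3′ on the gene's own strand, with every CG in capitals. The windows are chr17:12741061-12741360 (plus strand) for Airn, chr17:12769657-12769956 (minus strand) for Igf2r and chr7:143296498-143296797 (minus strand) for Kcnq1ot1.
Airn: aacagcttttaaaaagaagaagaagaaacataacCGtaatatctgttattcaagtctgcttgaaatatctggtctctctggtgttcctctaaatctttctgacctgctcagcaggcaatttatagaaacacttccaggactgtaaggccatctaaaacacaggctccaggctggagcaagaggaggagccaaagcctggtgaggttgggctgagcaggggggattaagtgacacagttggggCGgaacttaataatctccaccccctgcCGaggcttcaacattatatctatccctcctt
Igf2r: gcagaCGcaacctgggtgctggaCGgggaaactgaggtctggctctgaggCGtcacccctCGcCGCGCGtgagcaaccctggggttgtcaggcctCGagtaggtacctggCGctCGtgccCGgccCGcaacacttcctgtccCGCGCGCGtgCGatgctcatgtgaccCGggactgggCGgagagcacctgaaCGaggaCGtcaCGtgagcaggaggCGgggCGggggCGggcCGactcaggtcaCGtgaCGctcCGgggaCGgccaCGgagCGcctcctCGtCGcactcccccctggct
Kcnq1ot1: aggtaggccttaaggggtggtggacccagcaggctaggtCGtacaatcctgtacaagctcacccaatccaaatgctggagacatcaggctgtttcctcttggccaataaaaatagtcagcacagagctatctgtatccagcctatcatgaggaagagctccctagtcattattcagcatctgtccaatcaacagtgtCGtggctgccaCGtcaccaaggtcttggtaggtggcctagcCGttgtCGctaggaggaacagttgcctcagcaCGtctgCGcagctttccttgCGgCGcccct
The Airn window holds 3 CG, the Igf2r window 34 and the Kcnq1ot1 window 9, against a median of 7 over 32851 promoter windows of the same length. Of those windows 23.3% hold fewer CG than Airn, 92.3% fewer than Igf2r and 54.2% fewer than Kcnq1ot1. The motif TGCCGC, whose methylated form is bound by the imprint factor ZFP57 and whose CG is counted above too, was searched on both strands. It occurs in 11.6% of all windows, once in a Meg3 window and once in an Igf2 window, and not in those printed. The letters CCCTC, the core of the CTCF motif, were also searched on both strands and occur in 66.0% of all windows, with 1 match each in the Airn and Igf2r windows. A match describes the letters only. Promoter windows were found for 7 of the 10 genes, 11 windows in all. Kcnq1, Cdkn1c and H19 were not matched.

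The microRNAs of the lncRNA genes are shown by the seeds that would pair with targets. RefSeq gives 39 mature microRNAs whose precursors lie inside a member: 26 in Mirg, 6 in Rian, 3 in Meg3, 2 in H19 and 2 in Igf2. The seed, bases 2 to 8, is in capitals. The first pair below, both from Mirg, is the only pair among the 39 that shares a seed; the others are an example each from Rian and Meg3 and both arms of the H19 microRNA.
miR-453: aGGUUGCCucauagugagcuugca
miR-496a-5p: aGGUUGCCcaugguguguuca
miR-370-3p: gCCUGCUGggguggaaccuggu
miR-770-5p: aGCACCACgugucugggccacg
miR-675-5p: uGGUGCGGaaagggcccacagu
miR-675-3p: cUGUAUGCccuaaccgcucagu
None of these could be measured in the gene tables. All 23 microRNA genes and all 13 small nucleolar RNA genes annotated inside members have an effective length of 0 in every library and are listed at 0 counts. An effective length of 0 leaves no position at which a fragment fits inside the gene, so these zeros say nothing of its RNA.

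Values come from the deposited tables derived from read alignments (alignment-based) unless the alignment-free tables, derived directly from the reads, are named. The libraries hold 12699813, 18280033 and 18087091 expected counts in replicates 1, 2 and 3, with an RNA input of 1 µg, 250 ng and 500 ng, so the amount of RNA and the library cannot be told apart. Each library has its own biosample in the labels, all under a common donor entry. The p-values rest on the spread between these libraries, drawn toward a trend of variance over all genes in the fit. All 10 macrophage markers averaged at least 1 TPM, an abundance that divides the count by the gene's effective length and brings every library to the same total. Macrophage markers summed to 1349, 1002 and 1073 TPM. In bulk samples fewer cells with a transcript and less transcript per cell cannot be told apart. A typical expressed gene served as the yardstick: the reference gene is the median of those 8765 nuclear protein-coding genes that average at least 1 TPM, at 7.56, 6.64 and 6.56 TPM in replicates 1, 2 and 3.

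Airn and Igf2r, the overlapping antisense partners, stood above the reference gene at similar levels per length. Kcnq1ot1 stood above it by less, and its coding neighbours Cdkn1c and Kcnq1 lay far below. H19 and Igf2 were near the limit of detection, and Meg3, Rian and Mirg had at most 2 counts in any alignment-based library table. By limma's treat test on log2(TPM + 0.1), which asks for more than a 2-fold distance, with p adjusted by Benjamini-Hochberg over the 18445 genes in the fit, 2 members were higher than the reference gene (Airn and Igf2r), 7 were lower and 1, Kcnq1ot1, was neither. Over all genes tested 15.1% were called higher and 52.5% lower. A mean TPM of at least 0.1 was reached by 7 of the 10 members, and the other 3, Meg3, Rian and Mirg, were kept in the fit by name. The members' median stood at -4.21 log2 units from the reference gene, or -4.02 with each library at 0 counts set to the floor of 3 counts, against -1.75 and -1.67 over all genes tested.

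**Figure D1:**
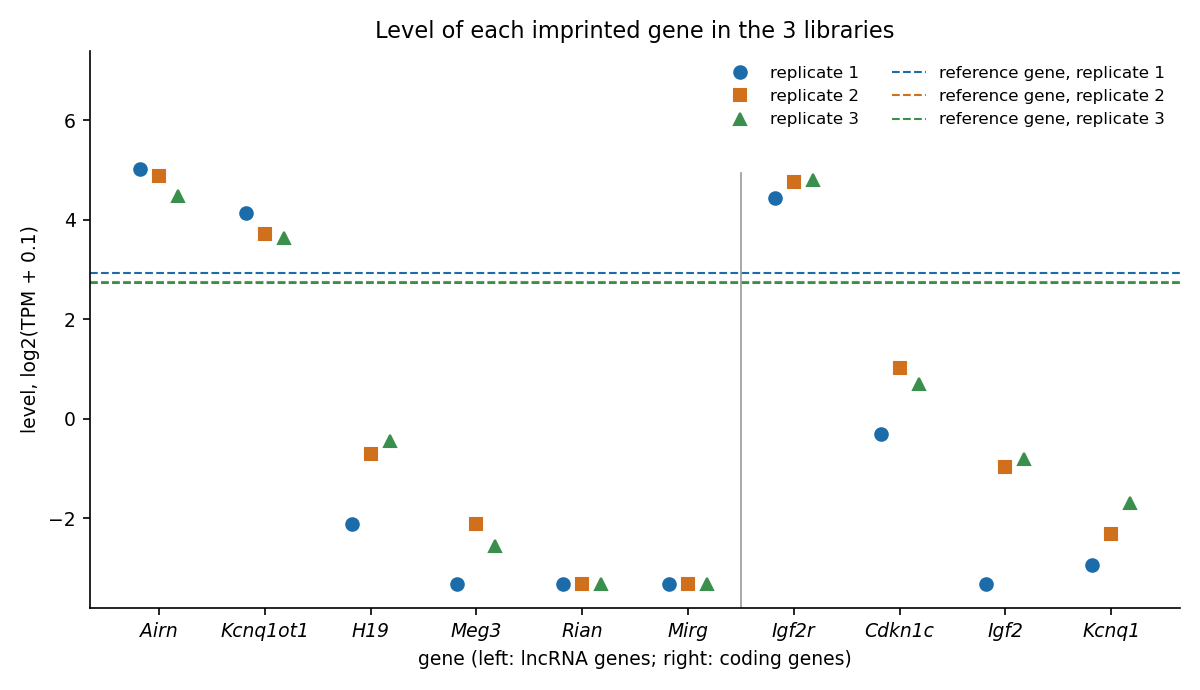
Level of each of the 10 genes as log2(TPM + 0.1), with 1 symbol per replicate, lncRNA genes left of the vertical line and coding genes right of it; dashed lines give the reference gene of each replicate (replicates 2 and 3 nearly coincide). Airn, Kcnq1ot1 and Igf2r lie above the lines in every replicate, and the other 7 genes lie below them.

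Airn (ENSMUSG00000078247.4) lies on the plus strand at chr17:12741311-12860136 (mm10), a span of 118826 bases of which the annotated exons of its 6 isoforms cover 3.03%. It had 32.32, 29.25 and 22.29 TPM in replicates 1, 2 and 3, from 347, 517 and 327 expected counts. Replicate 3 was lowest, and in every library Airn stood above the reference gene, by 4.28-, 4.41- and 3.40-fold. The mean was 28.0 ± 5.14 TPM (SD, n = 3), 1.98 ± 0.13 (SE) log2 units higher than the reference gene (Benjamini-Hochberg adjusted p = 0.000728 by limma's treat; above it in each of the 3 libraries). By TPM it ranked 76, 50 and 87 among 10155 lncRNA genes. The annotation holds spliced isoforms only, and the long unspliced Airn transcript is not in it. Reads of that transcript within the annotated exons would be counted here, so spliced and unspliced Airn RNA cannot be told apart.

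Igf2r (ENSMUSG00000023830.14) encodes the receptor that binds mannose 6-phosphate on lysosomal enzymes and also takes up and degrades IGF2. It lies on the minus strand at chr17:12682406-12769664, and its longest isoform has 48 exons and 8887 bases. It had 21.71, 26.86 and 27.90 TPM from 1892, 4123 and 3872 expected counts, lowest in replicate 1. The mean was 25.5 ± 3.31 TPM (SD, n = 3), 1.86 ± 0.15 (SE) log2 units higher than the reference gene (Benjamini-Hochberg adjusted p = 0.00219 by limma's treat; above it in each of the 3 libraries). With a band of 4-fold, or with a reference gene taken from genes of at least 5 TPM, neither Airn nor Igf2r was called.

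The spans of Airn and Igf2r overlap by 28354 bases on opposite strands, with 0 bases of shared exon. Set against each other within each library, Airn minus Igf2r was 0.57, 0.12 and -0.32 log2 units in replicates 1, 2 and 3: the antisense gene was the higher partner in replicates 1 and 2 and the lower one in replicate 3. The mean difference of 0.12 ± 0.23 (SE) did not pass (Benjamini-Hochberg adjusted p = 1 by limma's treat over 6033 pairs of a lncRNA gene and its coding neighbour). The sign depends on the scale and the library: it was -0.10 without replicate 1, and on log2 CPM, which does not divide by length, Airn was lower by a difference of -3.00, which was called. Among all pairs 3.15% had the lncRNA called higher and 77.6% had it called lower, with a median difference of -3.78, and 92.9% of pairs had a smaller difference than Airn and Igf2r. That is the rank of any difference near 0: for Rian minus Rtl1 and Mirg minus Dio3, with 0 counts in both partners, it was 92.7%.

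**Figure D2:**
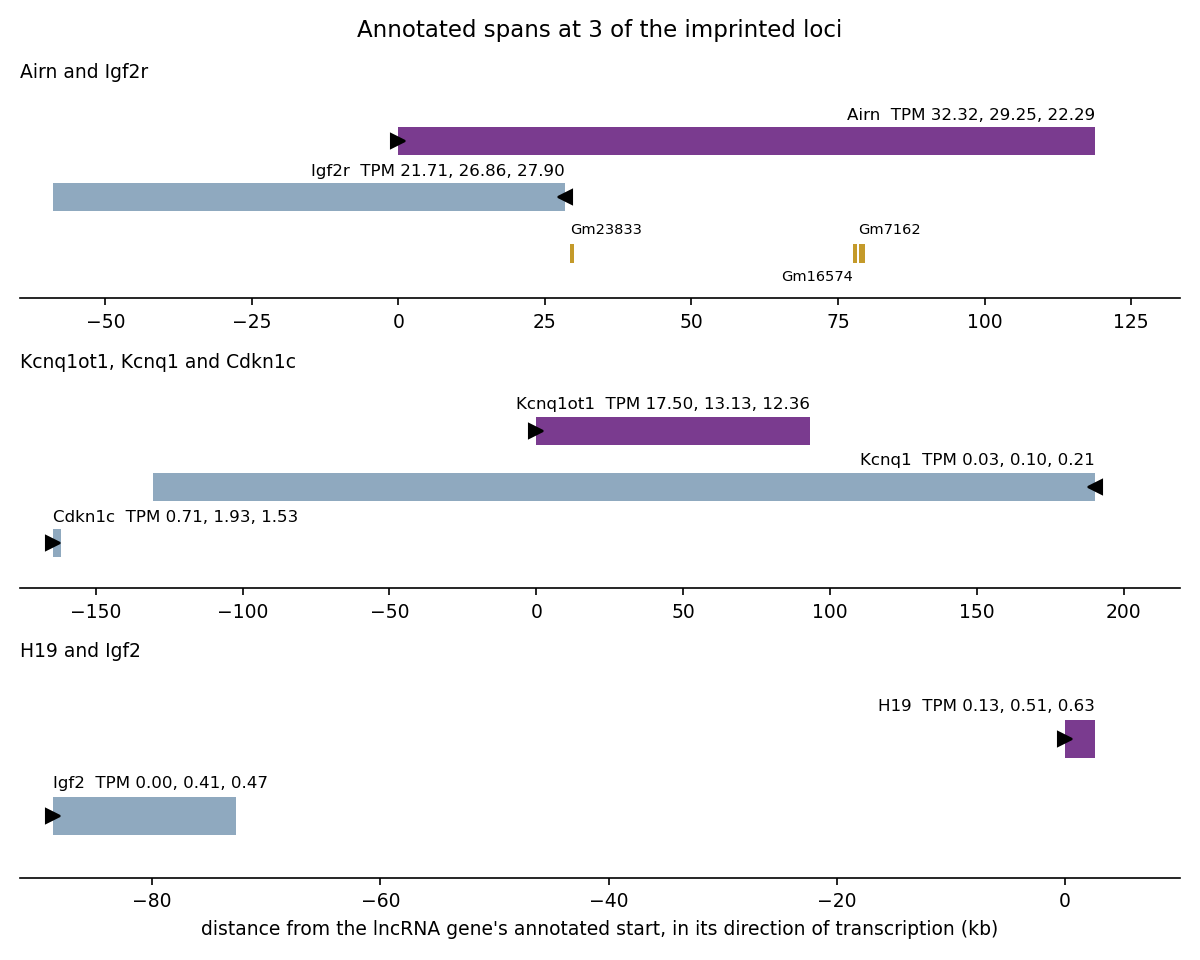
Annotated spans at the Airn, Kcnq1ot1 and H19 loci as distance in kb from the lncRNA gene's start, in its direction of transcription; purple bars are lncRNA genes, blue bars coding genes, gold bars other genes inside Airn, arrowheads mark each start and its direction, and the TPM of replicates 1, 2 and 3 is printed above each gene. Airn and Igf2r, with similar levels, overlap at their starts, and Kcnq1ot1 lies wholly inside Kcnq1, which has at most 0.21 TPM.

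Genes annotated inside Airn had reads along its span. The 3 with the highest mean counts, beside Igf2r itself, were Gm7162, a processed pseudogene on the opposite strand, with 73, 156 and 93 counts, Gm23833, a misc_RNA on the Airn strand, with 66, 81 and 59, and Gm16574, a processed pseudogene on the Airn strand, with 35, 62 and 46. All 3 had reads in every library. None shares an exonic base with an annotated Airn isoform. Mas1, a coding gene of the opposite strand that overlaps the far end of Airn, had 13, 19 and 14 counts. The strand setting of the counting is not given in the sources used here, so reads of overlapping genes on opposite strands, Airn and Igf2r included, cannot be assigned with certainty.

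Kcnq1ot1 (ENSMUSG00000101609.2) is annotated as 1 unspliced exon of 93092 bases on the minus strand at chr7:143203458-143296549. It had 22494, 27899 and 24347 expected counts, which is 0.177%, 0.153% and 0.135% of each library and ranked 7, 8 and 7 among 10155 lncRNA genes. Of its stretches of 31 bases (31-base words), 4.67% also occur in other genes, 5509 in all. The part of reads from such genes in its counts was not tested. Counts grow with length. Per length it had 17.50, 13.13 and 12.36 TPM, highest in replicate 1, and ranked 150, 119 and 156. The mean was 14.3 ± 2.77 TPM (SD, n = 3), 1.03 ± 0.13 (SE) log2 units above the reference gene, just at the 2-fold band and not called (Benjamini-Hochberg adjusted p = 0.551 by limma's treat; above it in each of the 3 libraries). Without a band it was called higher (Benjamini-Hochberg adjusted p = 0.000617 by limma), as it was with a reference gene from genes of at least 0.1 TPM (0.00078). The range over all alternatives was 0.000617 to 1.

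Kcnq1 (ENSMUSG00000009545.14), which encodes the pore subunit of a voltage-gated potassium channel, spans chr7:143106362-143427042 on the plus strand and holds the whole of Kcnq1ot1. It had 0.03, 0.10 and 0.21 TPM from 1, 4 and 7 expected counts. These are close to the floor, since 3 counts correspond to 0.0770, 0.0735 and 0.0919 TPM. It was called lower than the reference gene (-5.13 ± 0.41 SE log2 units, Benjamini-Hochberg adjusted p = 0.000337 by limma's treat; below it in each of the 3 libraries). Kcnq1 and Kcnq1ot1 share 121 exonic bases on opposite strands. The rest of Kcnq1ot1 lies opposite Kcnq1 intron, so unspliced Kcnq1 RNA would be counted in neither gene if strand was kept and in Kcnq1ot1 if it was not.

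Cdkn1c (ENSMUSG00000037664.13), which encodes the cyclin-dependent kinase inhibitor p57, lies 161789 bases from Kcnq1ot1 at chr7:143458339-143461050 on the same strand. It had 0.71, 1.93 and 1.53 TPM from 11, 42 and 36 expected counts, lowest in replicate 1. The mean was 1.39 ± 0.62 TPM (SD, n = 3), and it was called lower than the reference gene (-2.33 ± 0.34 SE log2 units, Benjamini-Hochberg adjusted p = 0.00861 by limma's treat; below it in each of the 3 libraries). This call was lost with a 4-fold band and with a reference gene from genes of at least 0.1 TPM.

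In both pairs of the Kcnq1 domain, which share Kcnq1ot1, the lncRNA was called higher than its coding partner. Kcnq1ot1 minus Kcnq1 was 7.08, 6.05 and 5.33 log2 units in replicates 1, 2 and 3, and the TPM ratio was 131- and 58.9-fold in replicates 2 and 3; no ratio is given for replicate 1, where Kcnq1 had 1 count. The mean difference was 6.15 ± 0.37 (SE; Benjamini-Hochberg adjusted p = 5.21e-05 by limma's treat; positive in each of the 3 libraries), and 28 of 6033 pairs had a larger one. Kcnq1ot1 minus Cdkn1c was 4.44, 2.70 and 2.93 log2 units, or 24.6-, 6.80- and 8.08-fold in TPM, with a mean of 3.36 ± 0.39 (SE; Benjamini-Hochberg adjusted p = 0.00147 by limma's treat; positive in each of the 3 libraries), and 80 pairs had a larger one. Only 3.15% of all pairs had the lncRNA called higher. The size for Kcnq1 depends on the pseudocount, at 3.77 with a pseudocount of 1 and 7.16 with 0.01. With 3 libraries an exact sign-flip permutation test of a single pair, two-sided, cannot go below p = 0.25, the value that both pairs gave.

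**Figure D3:**
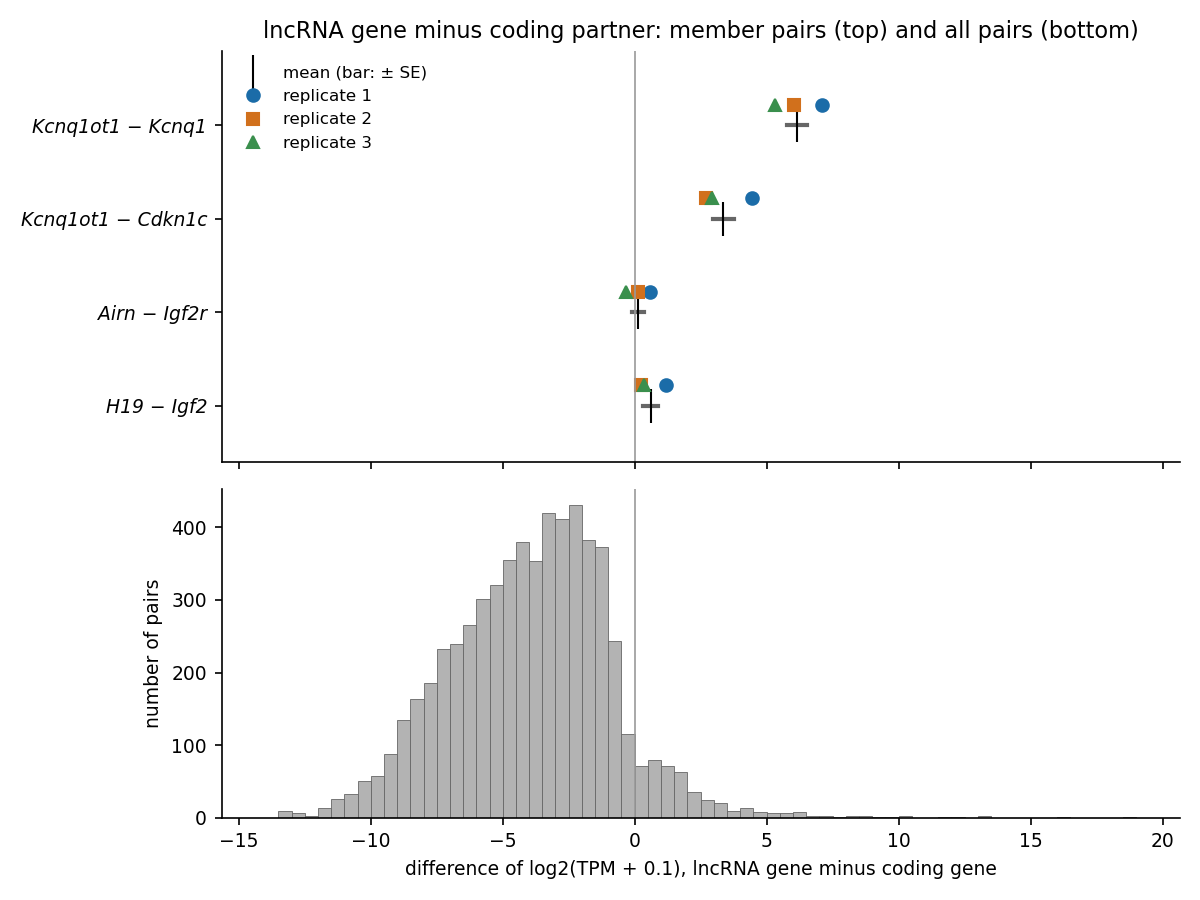
Top, difference of log2(TPM + 0.1), lncRNA gene minus coding partner, for 4 member pairs, with 1 symbol per replicate, a tick at the mean and a bar for ± SE. Bottom, number of the 6033 lncRNA and neighbour pairs by mean difference, in bins of 0.5; most lie below 0, while both Kcnq1ot1 pairs lie above 2.5 in every replicate and Airn minus Igf2r lies on either side of 0.

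H19 (ENSMUSG00000000031.16), a lncRNA abundant in fetal tissue, lies at chr7:142575529-142578143 on the minus strand. It had 0.13, 0.51 and 0.63 TPM from 1, 19 and 25 expected counts. Igf2 (ENSMUSG00000048583.16), which encodes the fetal growth factor that Igf2r takes up, lies 72622 bases away at chr7:142650766-142666816 on the same strand. It had 0, 0.41 and 0.47 TPM from 0, 34 and 24 expected counts. In the alignment-based tables both genes were thus nearly absent from replicate 1 and present at a low level in replicates 2 and 3.

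Scaled to depth, H19 made up 0.0787 CPM (counts scaled to a common library total) in replicate 1 (95% exact Clopper-Pearson interval 0.00199 to 0.439, counting error only), against 1.04 (0.626 to 1.62) in replicate 2 and 1.38 (0.894 to 2.04) in replicate 3. In the alignment-based tables the Igf2 count of 0 in replicate 1 allows up to 0.121 TPM, at least 62.3-fold lower than the reference gene. The alignment-free table of that replicate gave Igf2 13.1 estimated counts and 1.04 TPM, so the bound holds for the alignment-based tables only. Both genes were called lower than the reference gene, H19 at -3.90 ± 0.44 (SE) log2 units (adjusted p = 0.00119) and Igf2 at -4.51 ± 0.61 (Benjamini-Hochberg adjusted p = 0.00208 by limma's treat, both below it in 3 of 3 libraries). H19 minus Igf2 was 1.20, 0.26 and 0.36 log2 units, or 1.24- and 1.34-fold in TPM in replicates 2 and 3, and did not pass (0.61 ± 0.28 SE, Benjamini-Hochberg adjusted p = 0.926 by limma's treat). The count of 0 for Igf2 decides the value of replicate 1, and without replicate 1 the difference was 0.31.

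The stroma markers as a sum, like H19, Igf2 and Cdkn1c, had their lowest counts in replicate 1, the library with the fewest counts in all. Replicate 1 was also lowest for Igf2r (1892, 4123 and 3872 counts), Kcnq1 (1, 4 and 7) and Meg3 (0, 2 and 2). In the alignment-free tables Igf2 was lowest in replicate 1 by estimated counts, at 13.1, 70.2 and 69.0. By TPM it was not, at 1.04, 0.94 and 1.70. The 6 fibroblast and stroma markers summed to 0, 172 and 161 counts in replicates 1, 2 and 3, with all 6 at 0 in replicate 1. Col1a1, a collagen gene, had 0, 74 and 65 counts, Col1a2 had 0, 60 and 47, and Col3a1 had 0, 35 and 43. Each of the 6 had a mean level below 1 TPM, between 0.00333 and 0.37. The part of stromal cells in the H19, Igf2 and Cdkn1c counts was not tested. Of the other lists, endothelial markers summed to 76, 84 and 106 counts, stem and progenitor markers to 44, 49 and 84, and erythroid markers to 19.7, 24.2 and 35.8. Each was lowest in replicate 1 by counts but not by TPM. By TPM endothelial markers summed to 1.35, 1.27 and 1.28 and erythroid markers to 4.14, 3.24 and 3.35, both highest in replicate 1. Stem and progenitor markers summed to 1.65, 1.44 and 2.38 TPM, lowest in replicate 2. Stroma markers were lowest in replicate 1 by TPM too, at 0, 1.58 and 1.68. Neutrophil markers summed to 4, 4 and 0, and skeletal muscle markers to 2, 3 and 2.

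**Figure D4:**
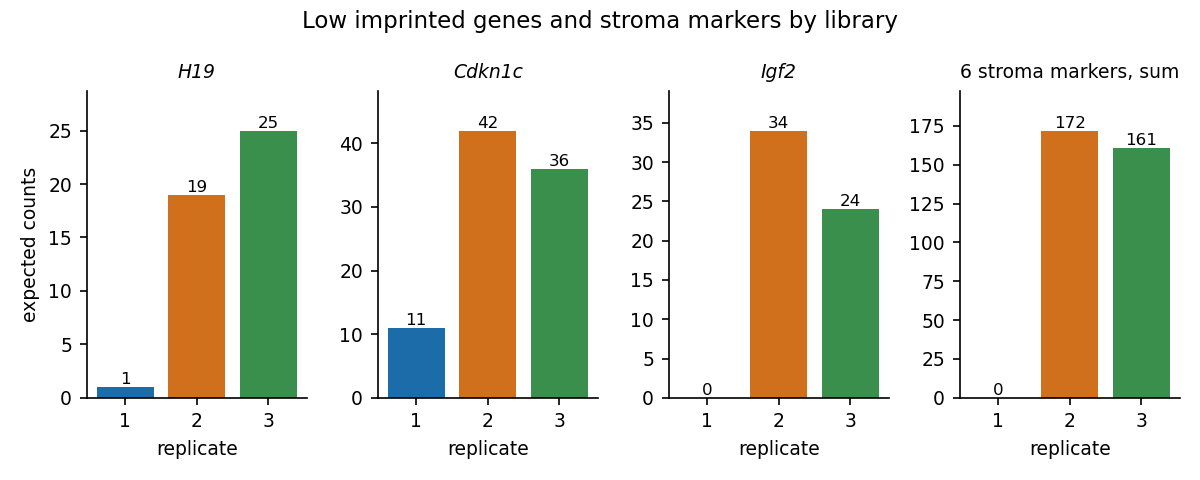
Expected counts of H19, Cdkn1c and Igf2 and the summed counts of 6 stroma markers in replicates 1, 2 and 3, each panel with its own axis from 0. In every panel replicate 1 is lowest, with 1, 11, 0 and 0 counts. Counts are not scaled to depth, which is also lowest in replicate 1.

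The lncRNA genes of the Dlk1-Dio3 domain were at or near 0 in the alignment-based tables. Meg3 (ENSMUSG00000021268.17, chr12:109541001-109571726, plus strand) had 0, 2 and 2 expected counts, or 0, 0.13 and 0.07 TPM. Rian (ENSMUSG00000097451.10, chr12:109603940-109661716, plus strand) and Mirg (ENSMUSG00000097391.8, chr12:109729764-109749460, plus strand) had 0 counts in every library. In these tables this places the Rian level at least 43.8-, 62.0- and 57.4-fold lower than the reference gene in replicates 1, 2 and 3, and for Mirg at least 49.5-, 70.2- and 65.0-fold lower, with a floor of 3 counts per library. All 3 were called lower than the reference gene. For Rian and Mirg, at 0 in every library, only the reference gene varied between libraries. Their SE of 0.384 therefore rests on the variance trend of the fit and is no measure of their own spread. The Rian call turns in the alignment-free tables, where it had 30.7, 15.4 and 24.6 TPM and was called higher (1.65 log2 units, Benjamini-Hochberg adjusted p = 0.0055 by limma's treat). With the fit limited to members and genes of at least 1 TPM on average, Meg3, Rian and Mirg were no longer called (Benjamini-Hochberg adjusted p = 0.164, 0.393 and 0.393 by limma's treat), nor was Kcnq1 (0.0923).

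Their coding neighbours were as low. Dlk1, the Notch-ligand relative at the start of the domain, had 0, 1 and 0 counts, and the retrotransposon-derived gene Rtl1 and the deiodinase gene Dio3 had 0 counts in every library. No fold is given for Meg3 and Dlk1, Rian and Rtl1, or Mirg and Dio3 in the alignment-based tables, since both partners of each pair are at or under the floor. In the alignment-free tables Rian was called higher than Rtl1 (5.69 log2 units, Benjamini-Hochberg adjusted p = 1.61e-07 by limma's treat) and Mirg higher than Dio3 (3.07, adjusted p = 0.000166). The Mirg level there lay wholly in ENSMUST00000183084.1, an isoform of 1 exon. Of its 31-base words 2.76% also occur in other genes, 2732 in all, so its reads cannot be assigned to Mirg with certainty.

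The level of a member in the alignment-free transcript tables, summed per gene, differed most, in TPM, from the alignment-based value for Igf2r, Airn and Rian. On average 93.1% of the alignment-free Rian TPM was assigned to ENSMUST00000182370.1, an isoform of 352 bases of whose 31-base words 5.59% also occur in other genes. By estimated counts this isoform held 79.1, 90.9 and 116 in replicates 1, 2 and 3. The isoform ENSMUST00000182406.1, of 3476 bases, held 64.3, 58.9 and 121. Of its 31-base words 5.63% also occur in other genes, 1677 in all. Airn had 146, 79.5 and 83.4 TPM, against 32.32, 29.25 and 22.29. Igf2r had 180, 120 and 117 TPM, against 21.71, 26.86 and 27.90. Of the alignment-free Igf2r level, 147, 90.8 and 88.6 TPM were assigned to ENSMUST00000159127.1, a processed transcript of 245 bases. This isoform lies at chr17:12748653-12750800, within the Airn span on the opposite strand, so its reads cannot be assigned to Igf2r with certainty. Kcnq1ot1 differed little, with 19.1, 12.1 and 13.3 TPM against 17.50, 13.13 and 12.36.

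Meg3 had 0.37, 0.41 and 0.60 TPM in the alignment-free tables and Mirg 0.43, 0.86 and 1.05, and both stayed below the reference gene. On average 86.5% of the Meg3 level was assigned to ENSMUST00000146701.7, of whose 31-base words 8.97% also occur in other genes, 451 in all. Igf2 had 1.04, 0.94 and 1.70 TPM, against 0, 0.41 and 0.47, on average 78.3% of it in ENSMUST00000163148.2, an isoform of 958 bases of whose 31-base words 97.3% also occur in other genes. Gm49394, a coding gene of the same strand, shares 3596 exonic bases with Igf2 and is listed at 0 counts, so the split of reads between the pair is uncertain. Genes on the strand opposite to a member also had counts there that the alignment-based tables lack. CT030636.1 and CT030636.2, lincRNA genes inside Airn on the opposite strand, had 149, 229 and 145 and 235, 463 and 401 estimated counts, against 0, 2 and 0 and 0, 0 and 0. Igf2os, antisense to Igf2, had 45.1, 93.0 and 86.0, against 0 in every library. These 3 genes were chosen after their values were seen, and a difference in the treatment of strand between the tables was not tested.

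**Figure D5:**
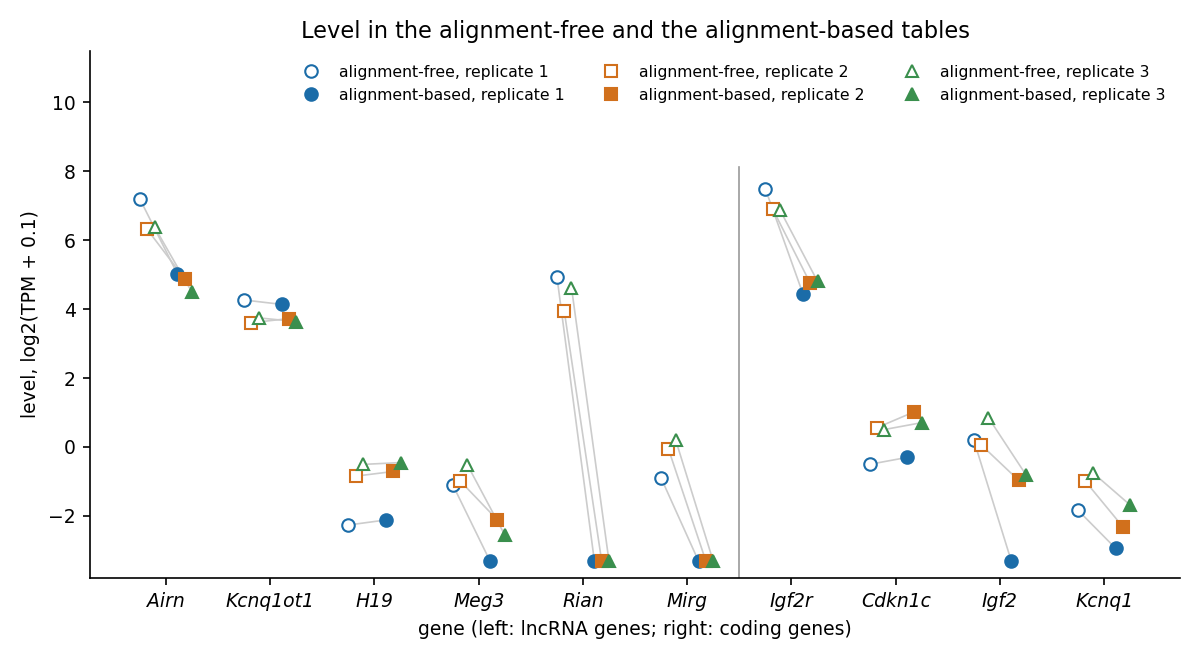
Level of each member as log2(TPM + 0.1) in the alignment-free tables (open symbols, left) and the alignment-based tables (filled symbols, right), joined by lines within each replicate. Rian shows the widest gap, at 15.4 to 30.7 TPM in the alignment-free tables and 0 in the alignment-based ones, while Kcnq1ot1 is nearly level.

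Of the Airn isoforms, those that start at its 5′ end took most of the TPM. By TPM, ENSMUST00000079529.6, with 2 exons, took 39.8% ± 5.50, and ENSMUST00000159791.1, with 3 exons, took 32.7% ± 7.16 (SD, n = 3). ENSMUST00000161890.1, which begins at base 12815931, inside the gene, took 27.0% ± 1.64. By counts, which favour long isoforms, these shares were 46.9%, 11.4% and 41.4%, and in the alignment-free tables they were 36.1%, 37.2% and 7.66% of the TPM. Reads of unspliced Airn RNA within these exons would enter all of these shares. For Igf2r the full receptor mRNA, ENSMUST00000024599.13, took 16.9% of the TPM in the alignment-free tables, against 73.7% ± 2.82 of the TPM and 97.9% of the counts in the alignment-based ones. The retained-intron isoform of Cdkn1c took 39.4%, 50.3% and 0% of its TPM in replicates 1, 2 and 3, on few reads.

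Of the 4 members past the count filter (edgeR's filterByExpr with a minimum count of 10), Kcnq1ot1 had a spread between replicates below that of genes of like level. The SD of its log2 CPM (with TMM scaling) over the 3 libraries was 0.11, against a median of 0.24 for 35 genes of like level. That of Airn was 0.31 against 0.24, that of Igf2r 0.42 against 0.22, and that of Cdkn1c 0.78 against 0.35. The Igf2r and Cdkn1c values rest on replicate 1, where they deviated by -0.48 and -0.90 from their means, and without it the SDs were 0.033 and 0.12, against 0.11 for Kcnq1ot1, so that the order of Igf2r and Kcnq1ot1 turns. Without replicate 3 the SD of Airn was 0.14 and that of Kcnq1ot1 0.044. The other 6 members did not pass the count filter.

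Among annotated lncRNA and coding genes, the levels nearest to Airn's over the 3 libraries were those of Nap1l4 (Euclidean distance 0.031 on log2(TPM + 0.1)) and Dock3 (0.041). For Igf2r they were those of Ap5z1 (0.16) and Tbc1d9b (0.17), and for Kcnq1ot1 those of Zfp326 (0.050) and Zfyve16 (0.070). For Cdkn1c they were Fdps (0.11) and Tldc1 (0.14), for H19 Ndufaf8 (0.077) and Ndufb3 (0.21), for Igf2 Akr7a5 (0.12) and the lincRNA gene Gm45620 (0.20), and for Kcnq1 Trim43a (0.12) and Edn1 (0.14). Nap1l4 is itself a gene of the Kcnq1 domain. With 3 libraries this is a likeness of level only.

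Of 33 other genes in the 4 domains, 2 were called higher than the reference gene, 20 lower and 11 neither (6.06% higher and 60.6% lower, against 15.1% and 52.5% over all genes tested), with a median of -3.16 log2 units against -1.75 over all genes tested. Listed genes, here and in the lists below, entered the fit at any level, while other genes needed a mean TPM of at least 0.1. The shares and medians of the lists are therefore not like for like with those over all genes tested, and no excess of lower genes can be read from them. Ctsd, the lysosomal protease gene near Igf2 and H19, had 105, 154 and 84.7 TPM, and Nap1l4, a histone chaperone gene at the edge of the Kcnq1 domain, had 32.7, 28.8 and 22.1. Both were called higher. Tcp1, a chaperonin subunit gene beside Igf2r, had 20.0, 12.9 and 14.3 TPM, and Ppp2r5c, a phosphatase subunit gene near Dlk1, had 18.6, 14.6 and 13.6, and neither was called. Of the 20 lower genes 9 had 0 counts in every library. They include Slc22a2, Slc22a3 and Plg beside Igf2r and Airn, Phlda2 in the Kcnq1 domain, and Ins2 and Th beside Igf2. The transporter genes Slc22a2 and Slc22a3 are known targets of Airn in mouse placenta, and Phlda2 of Kcnq1ot1.

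Of 53 measured imprinted genes outside these groups, 6 were called higher, 36 lower and 11 neither, 10 of the 53 at 0 counts throughout. These are 11.3% higher and 67.9% lower, against 15.1% and 52.5% over all genes tested, with a median of -4.90 log2 units, or -4.54 with zeros at the floor. The highest were Impact, a translation regulator, at 114 ± 34.2 TPM, Ampd3, an AMP deaminase gene, at 98.0 ± 15.4, Blcap at 27.5 ± 4.22 and Ube3a, a ubiquitin ligase gene, at 25.2 ± 5.25 (SD, n = 3). All 4 were called higher, as were Trappc9 and Gnas, named after their values were seen. The Airn and Igf2r means of 28.0 and 25.5 TPM lie beside those of Blcap and Ube3a.

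Of 36 genes for keeping imprints, silencing chromatin and insulating domains, 13 were called higher than the reference gene, 8 lower and 15 neither, with a median of 0.52 log2 units. These are 36.1% higher and 22.2% lower, against 15.1% and 52.5% over all genes tested. Hnrnpk, an RNA-binding protein gene, had 244 ± 70.8 TPM, Atrx, a chromatin remodeller gene, 209 ± 35.8, Dnmt3a, a de novo DNA methyltransferase gene, 133 ± 20.2, and Hnrnpu, which encodes a nuclear scaffold RNA-binding protein, 106 ± 17.6 (SD, n = 3). All 4 were called higher. The 8 lower genes, named after their values were seen, include Zfp57, whose protein's motif was searched above, at 0.060 ± 0.079 TPM, Dnmt3l, a cofactor of de novo DNA methylation, at 0.060 ± 0.053, and Ctcfl, the CTCF paralogue, at 0 counts. The others are Uhrf1 at 1.26 ± 0.68 TPM and the cohesin subunit gene Rad21 at 1.95 ± 0.51 (SD, n = 3), with Dnmt3b, Dppa3 and Tet1.

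In the IGF and mannose 6-phosphate receptor pathway, 6 of 23 genes were called higher, 10 lower and 7 neither, 5 of the 23 at 0 counts throughout. These are 26.1% higher and 43.5% lower, against 15.1% and 52.5% over all genes tested. Plaur, which encodes the urokinase receptor, a binding partner of the Igf2r protein, had 157 ± 9.00 TPM. Igf2 itself had 0 to 0.47 TPM, against 97.6 ± 18.4 TPM for Igf1, the related ligand. Igf2r had a mean of 25.5 ± 3.31 TPM, next to 26.7 ± 3.49 for M6pr, the smaller mannose 6-phosphate receptor, and 27.3 ± 4.14 for Insr, the insulin receptor gene (SD, n = 3). Plaur, Igf1, M6pr and Insr were called higher than the reference gene, as were Gga1 and Irs2, named after their values were seen.

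Of 15 relatives and partners of the Cdkn1c and Kcnq1 proteins, 2 were called higher, 10 lower and 3 neither (13.3% and 66.7%, against 15.1% and 52.5% over all genes tested, for higher and lower). The share called lower is raised by listed genes under a mean of 0.1 TPM, which were kept. Cdkn1a, which encodes the related inhibitor p21, had 189 ± 38.1 TPM and Cdk6, a kinase gene, 73.6 ± 8.11, and both were called higher. Cdk4 had 7.53 ± 0.093 and Cdkn1b, which encodes p27, 6.82 ± 2.54 (SD, n = 3), and neither was called. Cdkn1c, at 1.39 ± 0.62 TPM, was thus the lowest of the 3 genes for this inhibitor family by mean level.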

How the data were processed

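For each library the authors deposited gene and transcript tables with expected counts and TPM, derived from alignments (alignment-based), and a transcript table with estimated counts and TPM derived directly from the reads (alignment-free), on mm10 and annotation M21, per the file headers and README notes. Which programs made them is not given in the sources used here; their columns are laid out like RSEM and kallisto output. Reads that match several transcripts are divided between them, which can move TPM between isoforms and near-identical genes. Of 18020 genes with counts above 0 in every library, 73.84% had deposited expected counts that were whole numbers within 0.005 in every library. The counts of all members, including those with a 0 in some library, were whole too. Counts were rounded for CPM.

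Rows that name no gene of the annotation (26248 tRNA and 97 spike rows) held 1.2582%, 0.2231% and 0.2% of counts and were left out of tests. Levels were log2(TPM + 0.1) minus the reference gene, and pairs were differences of log2(TPM + 0.1) for every lncRNA gene and its nearest coding gene, with 7 member pairs in place of the nearest gene. Genes or pairs with a mean TPM of at least 0.1, and all listed genes, entered limma's treat test (limma 3.58.1, R 4.3.3, 2-fold band, trended prior variance, two-sided) with Benjamini-Hochberg adjustment; an adjusted p under 0.05 is a call. A pseudocount of 0.1 understates differences of genes near 0. Spread used edgeR 4.0.16 (TMM, prior count of 2), with DESeq2 1.42.0 size factors as an alternative. Tested on simulated data, the fits recovered 98% of level changes 2 log2 units beyond the band over 18445 genes and 100% of pair changes of that size over 6033 pairs. Of those simulated inside the band, 15 of 4069 genes and 12 of 485 pairs were called. Intervals and floors (3 counts) cover counting error only, since no source used here names molecular identifiers.

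The named genes are all members and pair partners, the 4 genes of highest mean TPM of each list and those at 0 counts, the 3 genes inside a member with the highest mean counts, and the 2 nearest genes by level. Marker lists covered macrophages, stroma, endothelium, stem and progenitor cells, erythroid cells, neutrophils and skeletal muscle. Hymai, 1 of 54 genes on the list of other imprinted genes, was not matched. The members and lists were chosen with earlier results of these data known.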

Additional observations from a re-analysis of the deposited data

Results flagged for a closer look

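Transcripts of the Dlk1-Dio3 domain had counts in the alignment-free tables, which the main comparisons do not use, while the alignment-based tables list them at or near 0. Meg3 had 89.22, 148.1 and 234.0 estimated counts there in replicates 1, 2 and 3, against 0, 2 and 2 expected counts. Rian had 164.7, 178.1 and 260.3 estimated counts, against 0 in every library. Mirg had 9.822, 42.65 and 41.72 estimated counts, against 0 in every library. Most Meg3 counts and all Mirg counts there were assigned to 1 isoform each. These isoforms share 31-base words with 451 and 2732 other genes. The cause was not tested.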

How the results depend on the processing

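Of 410 values recomputed under an alternative for 38 results, 354 kept their direction and side of the threshold, or moved by less than the spread or within 1.5 times for counts.

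In the alignment-free tables Airn minus Igf2r was -0.4605, H19 minus Igf2 -1.574 and the Rian level 1.65, each with the opposite sign; 4 member pairs had the lncRNA called higher, 5 domain neighbours and 10 other imprinted genes were higher than the reference gene, and the leading Igf2r isoform took 16.92% of TPM. By expected counts the leading isoforms of Igf2r and Airn took 97.88% and 46.89%. On log2 CPM, not per length, Airn minus Igf2r was -2.996, so that 1 member pair had the lncRNA called lower, and H19 minus Igf2 was -0.0158. The cause of these changes was not tested. Leaving out 1 replicate at a time, Airn minus Igf2r ranged over -0.1 to 0.3472 and the members' median SD of log2 CPM over 0.114 to 0.3945. With the exact sign-flip permutation test the differences of 6.152 and 3.36 for Kcnq1ot1 were not called (Benjamini-Hochberg adjusted p = 0.583).

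The choice of reference gene and band moved counts. With a 4-fold band 0 members, 1 domain neighbour, 2 other imprinted genes and 2 genes of the IGF list were higher. With reference genes from TPM 5 those counts were 0, 1, 2 and 2, Kcnq1ot1 lay at -0.1655, and 13 machinery genes were lower. With reference genes from TPM 0.1, 6 domain neighbours, 10 other imprinted genes and 20 machinery genes were higher. With no band these were 5, 10 and 20. With a mean TPM of at least 1 fewer genes were tested, and 3 members, 2 domain neighbours, 3 other imprinted genes, 2 machinery genes, 2 genes of the IGF list and 0 partner genes were lower. No paired analysis was possible because the series holds 1 group, and no groups share replicate numbers. Counts of 0 to 7 limit what can be said of Kcnq1, Meg3, Rian and Mirg.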
